A study of Mus musculus with 8 samples.

Results

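The metallothioneins Mt1 and Mt2, the metal-sensing transcription factor Mtf1, the zinc exporter Slc30a1 and the zinc importer Slc39a10 were followed by symbol through a table of 39017 Ensembl gene identifiers, of which 18952 had enough counts to be tested. All 5 genes were among those tested. The data are poly(A) RNA sequencing of mouse embryonic fibroblasts, connective-tissue cells grown from E13.5 embryos. Cells were either control or knockout for Mettl3, the catalytic subunit of the enzyme complex that writes the m6A mark on mRNA. The knockout was made by switching on Cre recombinase with 500 nM 4-hydroxytamoxifen for 48 h, with samples collected the day after 7 further days. Neither drug exposure of the control cells nor the construct that expressed Cre is stated in the labels. For each genotype there were 2 libraries of total RNA from cells without stress. A further 2 came from the RNA pelleted with stress granules, which are condensates of untranslated mRNA and protein, after 500 µM sodium arsenite for 30 min. The submitters call the libraries of a group biological replicates. Since total RNA was taken only without arsenite and the granule fraction only after it, effects of stress and of fraction cannot be told apart in any granule against total comparison.

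Metallothioneins are small cysteine-rich proteins that bind zinc, copper, cadmium and arsenic. MTF1 is activated when free zinc rises and binds metal response elements in the promoters of Mt1, Mt2 and Slc30a1, while Slc39a10 has been reported to be held down by it. Arsenite is a known inducer of metallothionein transcription, and the cell membrane exporter made from Slc30a1 lowers cellular zinc while the importer made from Slc39a10 raises it.

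The 3 promoters below are shown because they carry the sequence that MTF1 reads. They come from RefSeq (GRCm38.p6), run from 250 bases before to 50 bases from the RefSeq start, and are written 5′ to 3′ on the gene's strand. Capitals mark the metal response element core, searched as TGCACNC and TGCGCNC on both strands, so that a match on the opposite strand appears as its reverse complement.
Mt1: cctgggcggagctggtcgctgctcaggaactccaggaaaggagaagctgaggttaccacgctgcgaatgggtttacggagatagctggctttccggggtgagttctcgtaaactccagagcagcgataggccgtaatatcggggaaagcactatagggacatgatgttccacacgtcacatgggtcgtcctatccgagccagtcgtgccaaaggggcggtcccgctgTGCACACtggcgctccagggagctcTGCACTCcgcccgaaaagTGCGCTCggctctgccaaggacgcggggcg
Mt2: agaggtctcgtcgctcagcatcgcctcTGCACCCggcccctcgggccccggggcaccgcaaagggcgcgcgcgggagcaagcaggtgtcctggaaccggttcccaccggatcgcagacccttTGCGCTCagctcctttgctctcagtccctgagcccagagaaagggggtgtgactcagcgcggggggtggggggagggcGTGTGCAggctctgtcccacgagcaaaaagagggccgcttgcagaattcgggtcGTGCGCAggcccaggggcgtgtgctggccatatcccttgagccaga
Slc30a1: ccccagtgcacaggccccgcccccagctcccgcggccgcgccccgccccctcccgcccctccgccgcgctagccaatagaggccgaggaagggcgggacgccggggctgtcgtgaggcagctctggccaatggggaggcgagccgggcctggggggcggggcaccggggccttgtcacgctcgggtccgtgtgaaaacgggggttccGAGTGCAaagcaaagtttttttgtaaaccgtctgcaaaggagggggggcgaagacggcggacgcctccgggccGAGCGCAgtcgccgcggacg
The Mt1 window (chr8:94178839-94179138, plus strand) held 3 cores, with leftmost bases at -23, 3 and 21 from the RefSeq start. The Mt2 window (chr8:94172368-94172667, plus strand) held 4 cores, at -223 and -128 on the gene's strand and at -50 and 5 on the opposite strand. The Slc30a1 window (chr1:191906531-191906830, plus strand) held 2 cores, both on the opposite strand, at -43 and 31. Of 32851 RefSeq promoter windows of the same length, 25.7% held at least 1 core, 7.11% at least 2, 1.97% at least 3 and 0.517% at least 4. None of these letters occurred in the Mtf1 window or in either Slc39a10 window. No cores overlapped each other. The core of the antioxidant response element, the site read by NRF2, was searched as TGACNNNGC and occurred once each in the Mt2 and Slc30a1 windows, at -79 and -82, and in 12.4% of all windows. The RefSeq and GENCODE starts differ for these genes: that of Mt2 lies at 94172618 in RefSeq and at 94172664 in GENCODE M21.

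Library totals ran from 67257220 to 123508539 counts, so 3 counts correspond to 0.02429 to 0.0446 CPM (counts scaled to a common library size). That is far under the level of each of the 5 genes, though not of every listed gene named below. Levels below are CPM on TMM-scaled library sizes, with means ± SD over the 2 libraries of a group. Mettl3 itself, the check of the labels, was at 25.4 and 24.9 CPM in control total RNA and at 6 and 7.35 CPM in knockout total RNA. In the granule fraction it was at 15.7 and 15.4 CPM in control cells and at 5.56 and 6.38 CPM in knockout cells. The log2 difference of knockout from control was -1.91 in total RNA (SE 0.27, edgeR adjusted p = 0.0345) and -1.38 in the granule fraction (SE 0.26, edgeR adjusted p = 0.0208). Exons of Tox4 on the opposite strand overlap 18.381% of the exonic bases of Mettl3. All 11 fibroblast markers exceeded 1 CPM in every group, with summed levels of 3570 to 7750 CPM. Hepatocytes express much metallothionein in the embryo, and the 4 hepatocyte markers summed to 0.893 to 1.64 CPM. The 2 knockout total libraries stood apart: their replicate ratio exceeded 2-fold for 40% of 10211 genes, against 2.31%, 0.127% and 0.333% in control total, control granule and knockout granule. Mitochondrially encoded genes took 7.602% of counts in knockout total replicate 1 and 6.156% and 8.808% in the knockout granule libraries, against 0.59% to 0.8813% in the other 5.

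In control cells the levels of both metallothionein mRNAs were lower in the granule fraction than in total RNA, and of the 2 Mt2 passed the test. In knockout cells the granule levels were not lower, and the difference between the genotypes missed the threshold. Mt1 (ENSMUSG00000031765, GRCm38 chromosome 8, 94179082 to 94180327, plus strand, 3 exons) was at 277 and 218 CPM in control total RNA, a mean of 247 ± 41.4 (SD, n = 2). In the control granule fraction it was at 89.7 and 105 CPM, a mean of 97.5 ± 11 (SD, n = 2). The knockout cells held 270 and 136 CPM in total RNA (203 ± 94.6, SD, n = 2) and 287 and 239 CPM in the granule fraction (263 ± 33.6, SD, n = 2). The control granule libraries were thus the 2 lowest of the 8, and the other groups overlapped each other.

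Mt2 (ENSMUSG00000031762, chromosome 8, 94172664 to 94173568, plus strand, 3 exons) lies beside Mt1 and, per base of transcript, was lower than Mt1 in every library. It was at 170 and 183 CPM in control total RNA (177 ± 9.41, SD, n = 2) and at 25.2 and 28.2 CPM in the control granule fraction (26.7 ± 2.1, SD, n = 2). In knockout cells it was at 22.7 and 85 CPM in total RNA (53.8 ± 44.1, SD, n = 2) and at 132 and 98.6 CPM in the granule fraction (115 ± 23.4, SD, n = 2). The granule libraries were below the total libraries in control cells and above them in knockout cells, with no overlap in either genotype. Exons of the antisense gene Gm45774 cover 73.469% of the exonic bases of Mt2. Whether reads were counted by strand is not given in the sources used here, so the Mt2 count is uncertain to that extent. Mt1 and Mt2 could be told apart by sequence: none of the 500 stretches of 50 bases in the Mt1 transcript occurred in a transcript of another gene, and the 210 shared stretches of Mt2 (45.5%) were shared with Gm45774 alone.

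**Figure D1:**
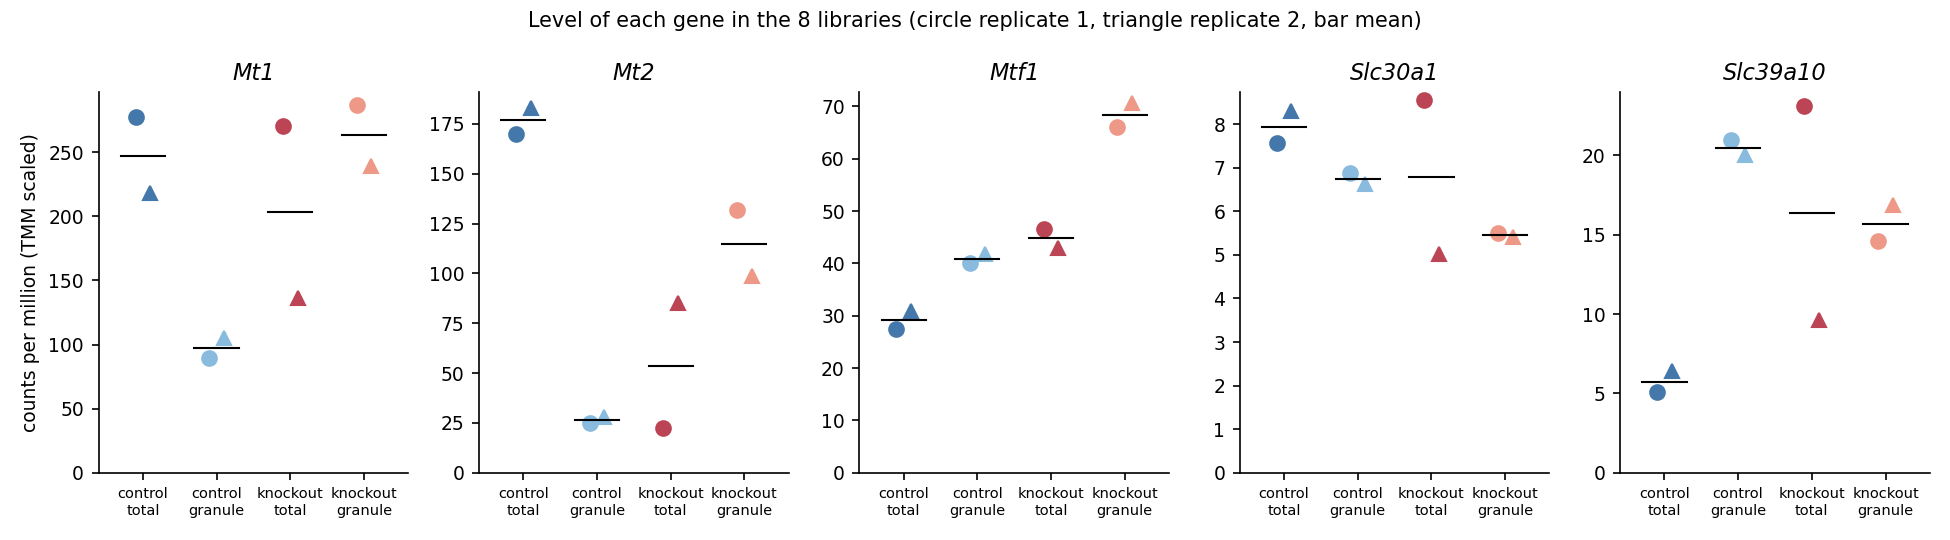
CPM on TMM-scaled library sizes (linear axes from 0, a scale per gene) of the 5 genes in each of the 8 libraries, by group, with replicate 1 as circles, replicate 2 as triangles and a bar at the mean of the 2. Mt1 and Mt2 are low in the control granule fraction, Slc39a10 is low in control total RNA, and the knockout total libraries lie far apart for Mt2 (22.7 and 85 CPM) and Slc39a10 (23.1 and 9.62 CPM).

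Granule against total in control cells called 2 of the 5 genes at an adjusted p under 0.05, against 10.1% of all genes tested (5.89% higher, 4.17% lower). Mt2 fell 6.62-fold, a log2 change of -2.73 (SE 0.56, edgeR quasi-likelihood test, Benjamini-Hochberg adjusted p = 0.0268). Mt1 had a log2 change of -1.34 (SE 0.36, edgeR adjusted p = 0.0521) and was not called. Mt1 passed with only the control libraries fitted (SE 0.2, edgeR adjusted p = 0.000858) and with DESeq2 (Wald test, adjusted p = 0.0054). It did not pass with the GC trend removed (edgeR adjusted p = 0.319) or the length trend removed (edgeR adjusted p = 0.166). Slc39a10 was the other call, in the opposite direction, and is described below. Both calls of the fit on all libraries, Mt2 and Slc39a10, were lost with the replicate number as a block. Mt2 was then at an edgeR adjusted p of 0.0528, and the calls over all genes tested fell from 1906 to 581. Both calls were also lost when any 1 of the 4 control libraries or the 2 knockout granule libraries was left out. Calls over all genes fell in each of these fits as well. With any 1 of the 8 libraries left out, the log2 change of Mt2 stayed between -2.78 and -2.6. With either knockout total library left out, 4 of the 5 were called, among 40.6% (without replicate 1) and 39.9% (without replicate 2) of all genes tested. The neural and glial markers moved with Mt2 in control cells, from a summed 30.6 to 40.4 CPM in total RNA to 5.46 to 5.58 CPM in the granule fraction. In knockout cells they summed to 14.3 to 24.4 and 9.55 to 10.8 CPM, with Sox2 and Snap25 at 0 in at least 1 library, and their part in the result was not tested. In these bulk libraries fewer cells of a type and less RNA per cell cannot be told apart.

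Granule against total in knockout cells called none of the 5 genes, against 17.6% of all genes tested (9.17% higher, 8.47% lower). An unadjusted edgeR p under 0.05 was reached by 1 of the 5, beside 6510 of all 18952 genes tested. Mt2 had a log2 difference of 1.1 (SE 0.53, edgeR adjusted p = 0.188) and Mt1 of 0.37 (SE 0.35, edgeR adjusted p = 0.493). The Mt1 value turned to -0.49 when the trend with GC content was removed, to -0.25 when the trend with transcript length was removed, and to -0.17 without knockout total replicate 2. For Mt2 the difference was 0.43 without knockout total replicate 1 and 2.22 without replicate 2, so its size rests on which of these libraries is used.

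Knockout against control in the granule fraction called 1 of the 5 genes, Mt1, against 9.45% of all genes tested (5.79% higher, 3.66% lower). Mt1 was 2.7-fold higher in the knockout granule fraction, a log2 difference of 1.43 (SE 0.36, edgeR adjusted p = 0.0459), and its 2 pairs of libraries did not overlap. Mt2 was 4.32-fold higher, a log2 difference of 2.11 (SE 0.55, edgeR adjusted p = 0.0507), and missed the threshold. The Mt1 call was lost with the replicate number as a block (edgeR adjusted p = 0.0748), with the GC trend removed (0.173) and with the length trend removed (0.209). It was also lost without any 1 of the 4 control or 2 knockout granule libraries. Calls over all genes fell too in at least 1 of these fits, that without control granule replicate 1. With any 1 library left out the Mt1 log2 difference was 1.25 to 1.55. Mt2 passed with the GC trend removed, at a log2 difference of 1.88 and an edgeR adjusted p of 0.00631. The share of mitochondrially encoded counts differed between the same groups, as given above, and its part in these values was not tested.

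In total RNA, knockout against control called none of the 5 genes, against 0.412% of all genes tested (0.274% higher, 0.137% lower). The unadjusted edgeR p was under 0.05 for 3 of the 5, beside 4705 of all 18952 genes tested. Mt2 had a log2 difference of -1.71 (SE 0.54, edgeR adjusted p = 0.148), with both knockout libraries below both control libraries. Mt1 had a log2 difference of -0.29 (SE 0.35, edgeR adjusted p = 0.618). It was 0.23 without knockout total replicate 2 and 0.76 with the GC trend removed.

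The difference between genotypes in the granule to total ratio was tested directly as an interaction. It called none of the 5 genes, against 0.517% of all genes tested (0.401% higher, 0.116% lower). The unadjusted edgeR p was under 0.05 for 3 of the 5, beside 4898 of all 18952 genes tested. For Mt2 the knockout log2 ratio exceeded the control ratio by 3.82 (SE 0.77, edgeR adjusted p = 0.0736). The value was 3.15 without knockout total replicate 1 (edgeR adjusted p = 7.95e-05) and 4.9 without replicate 2 (edgeR adjusted p = 4.59e-06). Each of these fits leaves 1 knockout total library, which is assumed to vary like the other groups, and the same interaction test called 18.6% and 46.4% of all genes tested in them. For Mt1 the difference was 1.72 (SE 0.5, edgeR adjusted p = 0.108). These 5 comparisons share libraries and are not independent of each other.

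**Figure D2:**
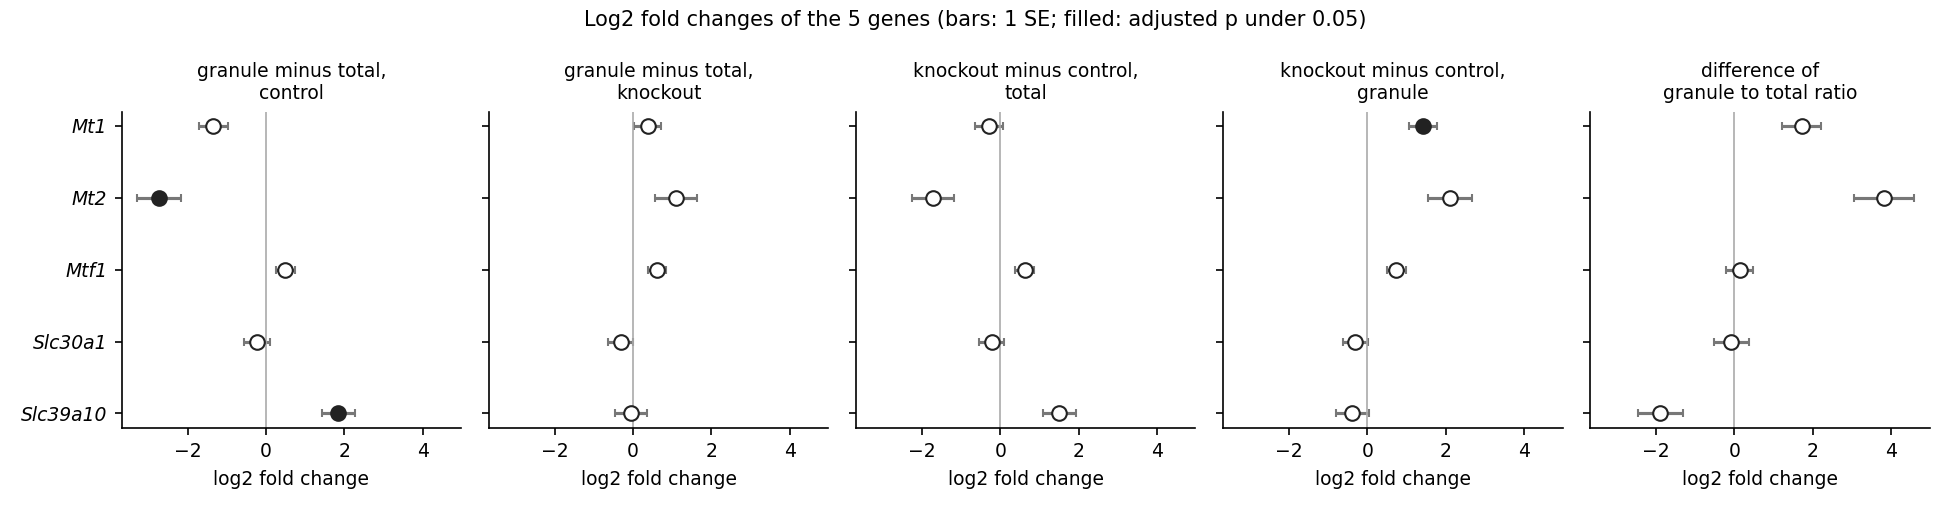
Log2 fold change with its standard error from the edgeR fit for the 5 genes in each of the 5 comparisons, with filled points for an adjusted p under 0.05. The filled points are Mt2 (-2.73) and Slc39a10 (1.84) for granule against total in control cells and Mt1 (1.43) for knockout against control in the granule fraction.

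The 2 metallothioneins did not keep a fixed proportion. Per base of transcript, the Mt2 to Mt1 ratio was 0.66 and 0.903 in control total RNA and 0.302 and 0.288 in the control granule fraction. It was 0.493 and 0.443 in the knockout granule fraction, between the control values, and 0.0901 and 0.671 in the knockout total libraries. The last pair holds the lowest value of the 8 libraries and the second highest. The summed level of both genes was 447 and 402 CPM in control total RNA, 115 and 133 CPM in the control granule fraction, 293 and 221 CPM in knockout total RNA and 419 and 338 CPM in the knockout granule fraction. On the sum, the control granule libraries stood lowest and the knockout granule libraries overlapped control total RNA.

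**Figure D3:**
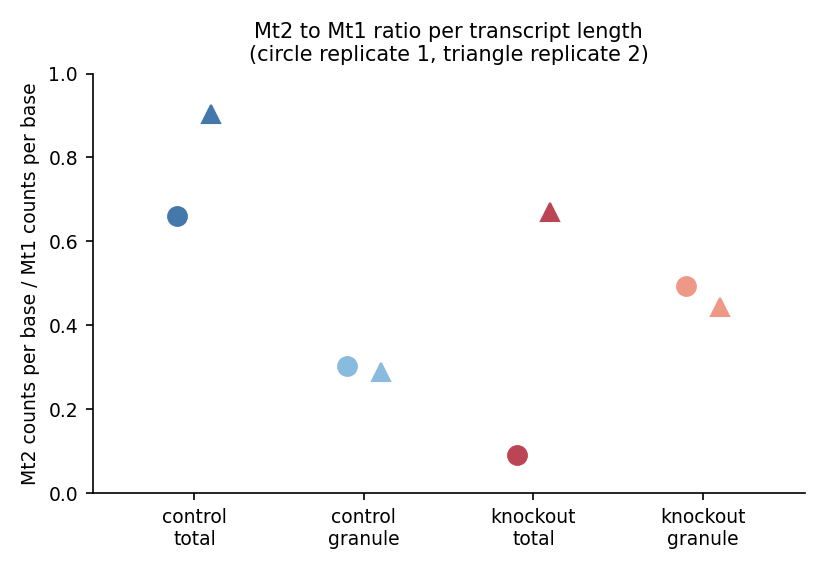
Ratio of Mt2 to Mt1 counts, each per base of transcript, in the 8 libraries (circles replicate 1, triangles replicate 2). The control granule pair lies at 0.302 and 0.288, the knockout granule pair at 0.493 and 0.443, and the knockout total pair at 0.0901 and 0.671.

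Transcripts of the other metallothionein genes of the cluster were close to the limit of counting. Mt3, a brain form that restrains neurite growth, had 1 to 22 counts per library (0.00899 to 0.2 CPM). Mt4, a form of stratified epithelium, had 8 to 57 counts (0.0728 to 0.838 CPM). Neither was called in any of the 5 comparisons.

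Mtf1 (ENSMUSG00000028890, chromosome 4, 124802104 to 124849800, plus strand, 11 exons), the sensor itself, had replicate values close to each other in all 4 groups. It was at 27.4 and 31 CPM in control total RNA (29.2 ± 2.5, SD, n = 2) and 40 and 41.8 CPM in the control granule fraction (40.9 ± 1.26, SD, n = 2). In knockout cells it was at 46.6 and 43 CPM in total RNA (44.8 ± 2.58, SD, n = 2) and 66.1 and 70.6 CPM in the granule fraction (68.4 ± 3.2, SD, n = 2). The 4 pairs of libraries did not overlap, with control total lowest and knockout granule highest. None of the comparisons called it: the log2 difference of granule against total was 0.49 in control cells (SE 0.24, edgeR adjusted p = 0.214) and 0.61 in knockout cells (SE 0.24, edgeR adjusted p = 0.112). Knockout against control gave 0.62 in total RNA (SE 0.24, edgeR adjusted p = 0.175) and 0.74 in the granule fraction (SE 0.24, edgeR adjusted p = 0.0905). The interaction was 0.13 (SE 0.34, edgeR adjusted p = 0.833), and it turned to -0.04 with no filter on low counts. Exons of 1110065P20Rik on the opposite strand overlap 8.095% of its exonic bases.

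Slc30a1 (ENSMUSG00000037434, chromosome 1, 191906767 to 191913247, plus strand, 2 exons), the exporter whose promoter is shown above, was low in all 4 groups. It was at 7.56 and 8.31 CPM in control total RNA (7.93 ± 0.527, SD, n = 2) and 6.88 and 6.62 CPM in the control granule fraction (6.75 ± 0.187, SD, n = 2). In knockout cells it was at 8.56 and 5.03 CPM in total RNA (6.79 ± 2.5, SD, n = 2) and 5.51 and 5.4 CPM in the granule fraction (5.45 ± 0.0733, SD, n = 2). The knockout total pair spans every other library, and no comparison called the gene. Its log2 differences were -0.23 and -0.32 for granule against total in control and knockout cells (edgeR adjusted p = 0.654 and 0.521). Knockout against control gave -0.22 in total RNA and -0.31 in the granule fraction (edgeR adjusted p = 0.667 and 0.563), each with an SE of 0.32. The interaction was -0.08 (SE 0.45, edgeR adjusted p = 0.923) and turned to 0.17 with upper-quartile scaling and 0.14 with library size alone. The antisense gene 1700034H15Rik overlaps 8.924% of its exonic bases.

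Slc39a10 (ENSMUSG00000025986, chromosome 1, 46807544 to 46892852, minus strand, 10 exons), the importer, ran opposite to Mt2 in control cells. It was at 5.07 and 6.4 CPM in control total RNA (5.74 ± 0.935, SD, n = 2) and 21 and 20 CPM in the control granule fraction (20.5 ± 0.737, SD, n = 2). In knockout cells it was at 23.1 and 9.62 CPM in total RNA (16.4 ± 9.54, SD, n = 2) and 14.6 and 16.9 CPM in the granule fraction (15.7 ± 1.6, SD, n = 2). Control total RNA was lowest with no overlap, and the knockout total pair spans all the granule libraries. In control cells the gene rose 3.58-fold from total RNA to the granule fraction, a log2 change of 1.84 (SE 0.42, edgeR adjusted p = 0.0356). The call was lost with the replicate number as a block (edgeR adjusted p = 0.0732). It was also lost without any 1 of the 4 control or 2 knockout granule libraries. Calls over all genes fell in the same fits. With any 1 library left out the log2 change was 1.69 to 2.06. The call held with the GC trend removed (1.47, edgeR adjusted p = 0.00947). In knockout cells the log2 difference was -0.06 (SE 0.41, edgeR adjusted p = 0.938) and turned to 0.06 with library size alone. It was 0.7 without knockout total replicate 1 (edgeR adjusted p = 0.0369) and -0.68 without replicate 2 (edgeR adjusted p = 0.0218). These fits again set the granule pair against 1 knockout total library with the spread of the other groups, and called 34% and 48.2% of all genes tested. Knockout against control gave 1.51 in total RNA (SE 0.42, edgeR adjusted p = 0.137) and -0.38 in the granule fraction (SE 0.41, edgeR adjusted p = 0.575). The interaction was -1.89 (SE 0.58, edgeR adjusted p = 0.115), and -1.14 and -2.56 without knockout total replicate 1 or 2 (edgeR adjusted p = 0.0192 and 2.69e-05, with the same limit and the same shares of all genes called as for Mt2).

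Per kilobase of transcript the levels in control total RNA ran Mt1 (451 CPM per kb), Mt2 (346), Mtf1 (3.83), Slc30a1 (1.51) and Slc39a10 (1.04). In the control granule fraction Mt1 stood at 178 CPM per kb, Mt2 at 52.2, Mtf1 at 5.36, Slc39a10 at 3.73 and Slc30a1 at 1.29. Mtf1 thus stood far below both metallothioneins and above both transporters. In knockout total RNA the levels were 370 CPM per kb for Mt1, 105 for Mt2, 5.87 for Mtf1, 2.98 for Slc39a10 and 1.3 for Slc30a1. In the knockout granule fraction they were 479 CPM per kb for Mt1, 225 for Mt2, 8.96 for Mtf1, 2.86 for Slc39a10 and 1.04 for Slc30a1. The order Mt1, Mt2, Mtf1 was the same in each group, and the 2 transporters exchanged places between control total RNA and the other groups. Neighbours in these orders did not overlap between libraries in any group.

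The replicate difference in knockout total RNA ran with GC content, and the 5 genes did not all lie on that trend. The log2 ratio of replicate 1 to replicate 2 was 0.99 for Mt1 (GC 58.1%), while 1540 genes within 2 percentage points of its GC had a median of -1.06, the middle 50% lying between -1.57 and -0.5. For Mt2 (GC 55.6%) the ratio was -1.91, against a median of -0.78 and a middle 50% of -1.31 to -0.25 over 2071 genes. So Mt1 and Mt2 departed in opposite directions from genes of like composition. The transporters lay nearer their trend, Slc39a10 (GC 44.5%) at 1.26 against a median of 0.85, and Slc30a1 (GC 46.2%) at 0.77 against 0.61. Mtf1 (GC 49.4%) was at 0.12 against 0.22. The part of GC content in the differences between groups was tried only through the fits with its trend removed.

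**Figure D4:**
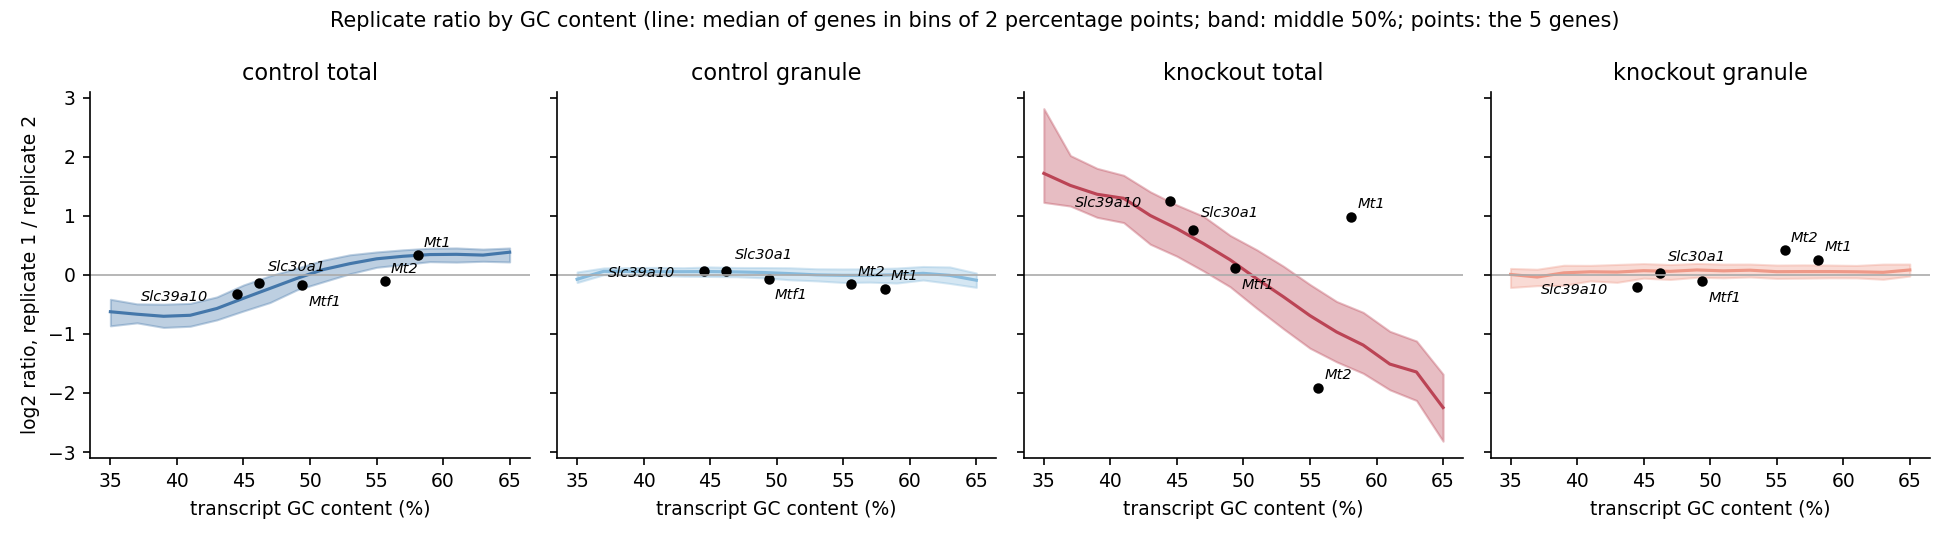
Log2 ratio of replicate 1 to replicate 2 against transcript GC content (%) in each group, with the median (line) and middle 50% (band) of genes in bins of 2 percentage points and the 5 genes as points. In knockout total RNA the line falls with GC content, with Mt1 (0.99) above it and Mt2 (-1.91) below it.

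The transcripts differ in build. Mt1 and Mt2 are 549 and 511 bases long, at the 1.2 and 0.9 percentiles of 15380 protein-coding genes tested, whose median is 2904.5 bases. Mtf1, Slc30a1 and Slc39a10 are 7631, 5244 and 5498 bases long, at the 94.4, 83.7 and 85.4 percentiles. The longest internal exon is 66 bases in both metallothioneins, 599 in Mtf1 and 1025 in Slc39a10, against a median of 207, and Slc30a1 has 2 exons and so no internal one. The letters GGAC, the core most often methylated by the METTL3 complex, occur 5 times in Mt1 (9.1075 per kb, the 97.9 percentile) and once in Mt2 (1.9569 per kb, the 7 percentile). Mtf1 holds 31 (4.0624 per kb), Slc30a1 14 (2.6697 per kb) and Slc39a10 10 (1.8188 per kb), against a median of 4.24 per kb. Methylation was not measured in these files, and a count of letters is a description of sequence.

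Across the 8 libraries the log2 CPM of Mt1 and Mt2 had a Pearson r of 0.574, and that of Mt2 and Slc39a10 an r of -0.834. Mtf1 had an r of 0.168 with Mt1, -0.13 with Mt2, -0.637 with Slc30a1 and 0.634 with Slc39a10. These values are descriptions over 4 groups of 2, with the libraries' depth and composition shared by all genes. Among 9996 genes the pattern most like that of Mt1 was Dand5 (r = 0.966), then Gabarap (0.943) and Slc25a23 (0.942). Those most like Mt2 were Mmp11 (0.969), Tmc6 (0.969) and Spint2 (0.967), and those most like Mtf1 were Utp23 (0.986), Mex3a (0.984) and Nmnat1 (0.983). Slc30a1 was most like Tamm41 (0.939), Aktip (0.917) and Ska1 (0.904), and Slc39a10 most like Rap2b (0.997), Virma (0.994) and Prpf38a (0.993).

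Of the 24 zinc transporter genes, 17 had a mean of at least 1 CPM, 6 exporters and 11 importers. In control cells none of 8 exporters tested and 2 of 13 importers rose from total RNA to the granule fraction, and none fell, beside 5.89% of all genes tested called higher and 4.17% lower. The importers were Slc39a10 and Slc39a5, which rose from 1.06 and 1.01 CPM to 3.17 and 3.47 CPM (log2 change 1.68, SE 0.35, edgeR adjusted p = 0.0263). Slc39a5 also rose in knockout cells, from 0.791 and 1.36 to 4.8 and 4.99 CPM (log2 change 2.19, SE 0.35, edgeR adjusted p = 0.00736); the difference between genotypes was 0.51 (SE 0.48, edgeR adjusted p = 0.516). In knockout cells Slc39a9 fell from 123 and 68.7 to 34.6 and 30.4 CPM (log2 change -1.56, edgeR adjusted p = 0.0173). The exporter Slc30a6, which loads zinc into the secretory pathway, fell from 21.3 and 19.7 to 11 and 9.57 CPM (log2 change -1, edgeR adjusted p = 0.0377). Slc30a3 was called higher in knockout granules from 0 and 3 counts to 22 and 21. No transporter was called between genotypes in either fraction or in the interaction. These counts, and those over all genes, moved when a knockout total library was left out. Between genotypes in total RNA, 0 exporters and 0 importers were called without replicate 1 (5.52% of all genes tested), while 3 exporters and 4 importers were called higher and 1 and 5 lower without replicate 2 (47.8% of all genes tested). For control granules against control total RNA, 4 exporters and 2 importers were called higher and 2 and 4 lower with either one left out, beside 40.6% and 39.9% of all genes tested.

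**Figure D5:**
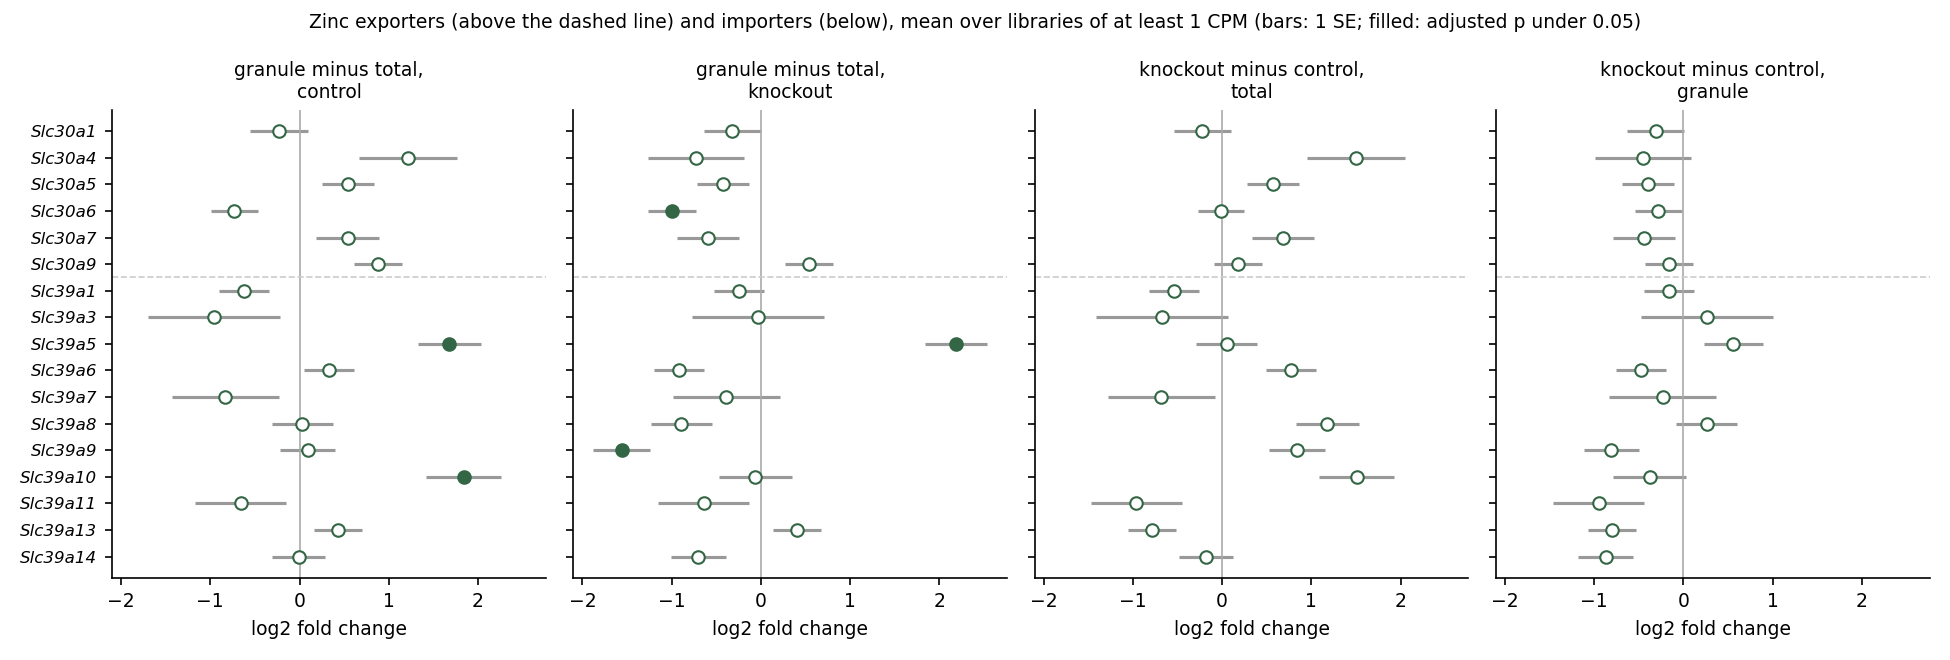
Log2 fold change with its standard error for 6 zinc exporters and 11 importers with a mean over libraries of at least 1 CPM, for granule against total in control and in knockout cells and for knockout against control in total RNA and in the granule fraction, with filled points for an edgeR adjusted p under 0.05. For granule against total Slc39a5 is called in both genotypes (1.68 and 2.19), Slc39a10 is at 1.84 in control and -0.06 in knockout cells, and neither panel of knockout against control holds a filled point.

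Of 7 other genes reported to depend on MTF1, 1 fell in control granules and 2 rose and 2 fell in knockout granules, beside 10.1% and 17.6% of all genes tested called in either direction. Ndrg1, a stress-responsive gene, fell in both genotypes, with log2 changes of -1.41 and -1.12 (edgeR adjusted p = 0.0185 and 0.0228). Pgf, a placental growth factor, rose in knockout cells from 3.19 and 4.1 to 18.5 and 17.2 CPM, and was 4.12-fold higher than in control granules, at 4.65 and 4 CPM (log2 difference 2.04, SE 0.32, edgeR adjusted p = 0.0122). The iron exporter Slc40a1 rose in knockout granules by 1.74 on the log2 scale (edgeR adjusted p = 0.018). Gclc, which makes the glutathione precursor, fell by 2.38 (edgeR adjusted p = 0.0334) from knockout total libraries at 197 and 44.8 CPM. None of the 7 was called between genotypes in total RNA or in the interaction. With knockout total replicate 1 or 2 left out, 3 were called higher and 1 lower in knockout than in control granules, where the fit on all libraries called 1 and 0. The share of all genes called in that comparison rose likewise, from 9.45% to 39% and 38.9%.

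Of 9 copper genes, 1 fell in knockout granules, beside 8.47% of all genes tested called lower. Cox17, a copper chaperone of cytochrome oxidase, fell by 2.18 on the log2 scale (edgeR adjusted p = 0.0321). Its knockout total libraries lay apart, at 20.2 and 6.27 CPM, with the granule libraries at 2.97 and 2.88 CPM. No other call on a copper gene was made in any of the 5 comparisons. Of 8 iron genes, 4 fell in knockout granules (Ncoa4, Slc11a2, Fth1 and Aco1), and none rose, beside 8.47% of all genes tested called lower. Ncoa4, the receptor for ferritin breakdown, was at 16.9 and 19.6 CPM in knockout total RNA and at 4.84 and 4.06 CPM in the granule fraction (log2 change -2.03, SE 0.32, edgeR adjusted p = 0.00715). Ncoa4 and Tfrc, the transferrin receptor, were lower in knockout than in control granules, with log2 differences of -1.82 and -1.5 (edgeR adjusted p = 0.0168 and 0.0396). In control cells 1 iron gene, Ireb2, rose (log2 change 1.93, edgeR adjusted p = 0.032), and none fell. Without knockout total replicate 1 or 2, the iron genes called lower in knockout than in control granules were 4 and 6 in place of 2, beside 39% and 38.9% of all genes tested in place of 9.45%. In the same fits 3 copper genes were called lower in control granules than in total RNA in place of 0, beside 40.6% and 39.9% of all genes tested in place of 10.1%.

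As a reference for the arsenite response, 3 of 6 genes rose in the granule fraction of each genotype, beside 5.89% and 9.17% of all genes tested. They were the heat shock genes Hspa1a and Hspa1b and the immediate-early gene Fos. Sequence shared between Hspa1a and Hspa1b was not checked, so their counts may not be separate. Exons of Gm20481 on the opposite strand overlap 19.009% of the exonic bases of Hspa1a. Hspa1a rose from 0.971 and 0.906 to 9.31 and 11.1 CPM in control cells (log2 change 3.44, SE 0.4, edgeR adjusted p = 0.00606) and by 2.54 on the log2 scale in knockout cells (edgeR adjusted p = 0.0064). Atf3 fell in control cells (log2 change -1.24, edgeR adjusted p = 0.0231). Hmox1, which degrades heme, was at 342 and 294 CPM in control total RNA and at 320 and 308 CPM in the control granule fraction. None of the 6 was called between genotypes or in the interaction, while with either knockout total library left out 2 were called higher and 4 lower in knockout than in control granules, beside 39% and 38.9% of all genes tested. Over the 5 metal-response genes first described, the median log2 difference was -0.23 in control and 0.37 in knockout granules against total, beside -0.06 and 0.04 over all genes tested. It was -0.22 for knockout against control in total RNA, 0.74 in the granule fraction and 0.13 for the interaction, beside 0.02, 0.08 and 0.09 over all genes.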

How the data were processed

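Gene counts for 8 poly(A) libraries were taken as the authors deposited them, as whole-number counts per Ensembl gene in 1 table, with no column left unmapped. The submitters' processing notes name STAR, DESeq2 and GRCm38 (mm10); the counting program, strand setting and annotation release are not given in the sources used here. Symbols, positions, transcript lengths and GC content came from GENCODE M21 on the same build (37607 of 39017 identifiers matched), and promoters from RefSeq.

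Counts were fitted with edgeR 4.0.16 in R 4.3.3 (TMM scaling, filterByExpr, robust quasi-likelihood test, 4 group means over 8 libraries, 4 residual degrees of freedom), with Benjamini-Hochberg adjustment over 18952 genes and calls at an adjusted p under 0.05. Log2 CPM used a prior count of 2, and a level per kilobase divides CPM by the length of the principal transcript. The fit was tested on simulated data with the same spread in every gene and library and no GC trend. The wide spread of the knockout total pair was not part of that test. P-values of the fit on all libraries use 1 spread per gene, estimated over the 4 groups of 2 libraries together, and this spread may be partly technical. The knockout total pair, which differed most, thus enters the SE of every comparison, also of those without it. For Mt2 in control granules against total the SE was 0.56, and 0.19 with only the control libraries fitted. The floor of 3 counts covers counting error only.

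The genes and lists were chosen with earlier results of these data known. The 5 metal-response genes are always named; from each list at most the 3 called genes with the largest change per comparison are named, plus a few given for their levels, and for likeness of pattern the 3 genes with the highest Pearson r. Aco1, Atf3 and Hmox1 fall outside this rule and were named after their values were seen. The lists were the metallothionein family, zinc exporters, zinc importers, MTF1-dependent genes, copper genes, iron genes, arsenite reference genes, and markers of fibroblasts, leukocytes (60.6 to 97.7 CPM summed), endothelium (6.35 to 20.5), epithelium (66.6 to 181), neural cells, muscle (0.604 to 1.99), erythroid cells (8.08 to 20.7) and hepatocytes. Alternatives were other scalings, DESeq2 1.42.0, other filters, a replicate block, removal of GC or length trends, fits on the compared groups alone and leaving out each library. A limma 3.58.1 voom fit with library weights was added after the data were seen, as were list counts without each knockout total library.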

Additional observations from a re-analysis of the deposited data

Results flagged for a closer look

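By library values, Mt2 moved in opposite directions between granule fraction and total RNA in the 2 genotypes. Every granule library was below every total library in control cells and above in knockout cells. Only the fall in control cells was called (edgeR adjusted p = 0.0268). The log2 difference in knockout cells was 1.1 (edgeR adjusted p = 0.188), and 0.43 without knockout total replicate 1. How many of all genes tested show such a pattern was not counted. The same values give knockout below control in total RNA and above it in the granule fraction. Neither of these was called (edgeR adjusted p = 0.148 and 0.0507). The log2 ratio of granule to total differed by 3.82 between knockout and control; the edgeR test of that difference gave an adjusted p of 0.0736, which missed the threshold.

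Slc39a10 was higher in both knockout than in both control libraries of total RNA and lower in both knockout libraries of the granule fraction. Neither difference was called. The log2 value was 1.51 in total RNA (edgeR adjusted p = 0.137) and -0.38 in the granule fraction (edgeR adjusted p = 0.575). The knockout total libraries, at 23.1 and 9.62 CPM, span all the granule libraries. Between the fractions the log2 difference was -1.89 (edgeR adjusted p = 0.115, which missed the threshold). The share of all genes with such a pattern was not counted.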

How the results depend on the processing

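None of the 3 calls, of Mt2, Slc39a10 and Mt1, withstood every alternative. Mt1 and Mt2 had 2520 to 31524 counts per library, while Mt3 and Mt4 had 1 to 57, close to the limit of counting. Of the alternative log2 values of the 5 genes, 377 had the direction and the side of the threshold of the reported value, 67 passed it where the reported value did not, 24 no longer passed it, and 27 changed sign; unless named below, the cause was not tested.

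Of the 5 genes, granule against total called 2 in control cells. It called 0 with the replicate block, 4 with voom weights, and 3 with DESeq2, the GC trend removed or the compared groups alone. It also called 3 with upper-quartile scaling, library size alone, no filter or a mean of at least 5 CPM. In knockout cells it called 0, and 1 with no filter, with the GC trend removed, or with that and the replicate block, and 0 to 3 with 1 library left out. Knockout against control in total RNA called 0, and 3 with DESeq2, 2 with no filter and 0 to 3 with 1 library left out. In the granule fraction it called 1, and 2 with upper-quartile scaling, no filter, a mean of at least 5 CPM, the GC trend removed, or that with the replicate block; 3 with DESeq2; 4 with voom weights or the compared groups alone; 0 with the replicate block; and 0 to 3 with 1 library left out. The interaction called 0, and 3 with DESeq2 or no filter, 2 with voom weights, 1 with the GC trend removed with or without the replicate block, and 0 to 3 with 1 library left out. Counts over all genes moved with them: the 1906, 3343, 78, 1791 and 98 genes called ranged from 0 to 8118, 0 to 9707, 0 to 9627, 0 to 10454 and 0 to 9349 in the same order of comparisons.

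Every count above 0 with 1 library left out came without a knockout total library. Some log2 values changed sign. Slc39a10 for granule against total in knockout cells was 0.06 with library size alone, 0.01 with a mean of at least 5 CPM, 0.05 with the GC trend removed, 0.09 with that and the replicate block, 0.08 with voom weights and -0.68 to 0.7 with 1 library left out. Mt1 in the same comparison was -0.49 with the GC trend removed, -0.32 with that and the block and -0.25 with the length trend removed. With 1 library left out it was -0.17 to 0.94. Slc30a1 in that comparison ranged from -0.78 to 0.11. For knockout against control in total RNA, Mt1 was 0.76 with the GC trend removed, 0.59 with that and the block, 0.14 with the length trend removed and -0.86 to 0.23 with 1 library left out, and Slc30a1 ranged from -0.66 to 0.22. The Slc30a1 interaction was 0.17 with upper-quartile scaling, 0.14 with library size alone, 0.11 with a mean of at least 5 CPM, 0.18 with the GC trend removed, 0.19 with that and the block, 0.12 with the length trend removed and -0.59 to 0.34 with 1 library left out. The Mtf1 interaction was -0.04 with no filter and -0.1 to 0.2 with 1 library left out. Upper-quartile scaling moved the median of all genes from -0.06 to -0.29 for control granules against total.

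Same-numbered libraries did not deviate together: correlations of their deviations over 10211 genes ran from -0.602 to 0.19, so the numbers were not taken to pair the libraries. Fits without a knockout total library assume that the remaining one varies like the other groups. With the replicate number as a block, the log2 values of the called genes were -2.73 for Mt2, 1.83 for Slc39a10 and 1.4 for Mt1.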
